A study of Mus musculus with 4 samples.

Results

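The genes described here are 32 named genes of synaptic vesicle release and of postsynaptic scaffolding, out of 49997 gene rows in each deposited count file. They were chosen by name, and all 32 have a row in the files. By role, 10 encode vesicle proteins, 8 the SNARE fusion machinery, 5 the active zone and 9 postsynaptic scaffolds.

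RNA was measured in 4 libraries of wild-type iMOP cells, mouse inner ear progenitors grown as an immortalized line, with 2 libraries labelled neuron and 2 labelled proliferating, numbered 1 and 2 in each group. Cells labelled neuron were kept in Neurobasal medium with N21 supplement, L-glutamine (2 mM) and the CDK2 inhibitor K03861 at 1 µM. Those labelled proliferating were kept in DMEM/F12 with N21, carbenicillin and 20 ng/ml bFGF, a fibroblast growth factor. All come from 1 cell line, and the labels do not say whether the numbers mark separate cultures, so p-values measure only the spread between these samples, which may be technical.

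At a chemical synapse, vesicles filled with transmitter dock at the active zone, where RIM, Munc13, Bassoon and Piccolo proteins hold and prime them. Calcium binding to synaptotagmin then triggers the SNARE proteins synaptobrevin, syntaxin and SNAP-25 to fuse vesicle and plasma membrane, with complexins as regulators. NSF and SNAP proteins take the spent SNARE complex apart. Across the cleft, scaffolds of the DLG, SHANK and HOMER families hold glutamate receptors in place, and gephyrin does so for glycine and GABA receptors. Spiral ganglion neurons, the neurons that otic progenitors give rise to, pass sound information from hair cells to the brainstem through such synapses.

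Total counts were 27424909 and 8368169 in the neuron libraries and 3150354 and 32913243 in the proliferating libraries. Between 88.2% and 98.1% of them fell on 7 ribosomal RNA and rRNA-like genes, which were set aside, leaving 292302 counts in the shallowest library and 3241915 in the deepest. Levels are given as scaled CPM, that is, CPM taken over the counts of the 9009 genes that passed a count filter, after TMM scaling. On that scale a count of 0 allows, at 3 counts, up to 0.798 and 6.22 in neuron 1 and neuron 2, and up to 9.76 and 5.50 in proliferating 1 and proliferating 2. Intervals and these limits cover counting error only, because reads are not independent molecules.

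The labels were set against lists of 10 markers each. The summed level of the dividing cell markers was 2089 and 5130 scaled CPM in the neuron libraries, against 270.0 and 719 in the proliferating libraries. Neuron markers summed to 1582 and 1548 scaled CPM in the neuron libraries and to 2590 and 2942 in the proliferating libraries, and all 10 had a count in at least 1 library. The sums of both lists ran against the labels, which are used below as names of the libraries. All 10 dividing cell markers were higher in the neuron library within both numbers. Of 7 neuron markers tested, 5 were lower in the neuron library within both numbers and 0 were higher in both. Rbfox3, which was not tested, went the other way. It was at 46.8 and 6.22 scaled CPM in the neuron libraries, against 13.0 and 3.67 in the proliferating libraries, with 3 and 2 counts in number 2. Glial markers summed to 652 and 1219 scaled CPM in the neuron libraries and to 1841 and 1839 in the proliferating libraries, and Sox10, which defines Schwann cells and oligodendrocytes, was at 0 in all of them. Otic progenitor markers summed to 2160 and 1903 scaled CPM in the neuron libraries and to 3045 and 8343 in the proliferating libraries, with Pax8 and Isl1 at 0 throughout. Hair cell markers summed to between 18.7 and 30.6 scaled CPM, and the hair cell genes Pou4f3, Otof, Strc and Ocm were at 0 in every library. Immune cell markers did not exceed 13.0 scaled CPM in any library. The part of these cell type lists in the values below was not tested.

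Syn1 and Unc13a carry, in their promoters, letters of RE1, the DNA site of the repressor REST, which silences many neuronal genes outside neurons. They are shown because no other promoter available for these genes held such a match. RefSeq promoter windows (build GRCm38.p6, running from before to just after the start site) were available for 26 of the 32 genes. Snap25, Vamp2, Syt4, Rims2, Shank1 and Shank2 had no entry. The left block of RE1, TTCAGCACC, the right block and the whole site, which contains both blocks, were searched on both strands. The left block was found in 0.371% of 32851 promoter windows, the right block in 0.521% and the whole site in 1 window, of no gene described here. Capitals mark the matches, and both windows lie on the minus strand of the genome and are printed 5′ to 3′ along the gene.
Syn1, chrX:20920869-20921168: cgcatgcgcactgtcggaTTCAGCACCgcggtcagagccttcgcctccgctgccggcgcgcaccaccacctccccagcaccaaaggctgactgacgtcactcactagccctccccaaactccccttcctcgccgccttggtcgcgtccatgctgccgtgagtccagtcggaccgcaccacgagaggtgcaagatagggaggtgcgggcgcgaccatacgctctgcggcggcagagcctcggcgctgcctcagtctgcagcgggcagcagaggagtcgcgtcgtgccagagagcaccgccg
Unc13a, chr8:71671708-71672007: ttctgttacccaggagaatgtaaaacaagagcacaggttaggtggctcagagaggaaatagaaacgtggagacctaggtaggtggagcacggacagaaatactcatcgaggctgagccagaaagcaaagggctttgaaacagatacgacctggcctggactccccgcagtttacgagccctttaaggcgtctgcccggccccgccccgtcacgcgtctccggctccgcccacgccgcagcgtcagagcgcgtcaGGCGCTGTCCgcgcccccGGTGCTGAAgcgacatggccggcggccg
In Syn1 the left block occupies positions 19 to 27 of the window, counted from its 5′ end. The letters ggtcagagcc, shortly after it, differ from the right block in a single letter, so the exact search did not take them as a match. In Unc13a both blocks lie on the opposite strand of the printed sequence, the right block at positions 255 to 264 and the left block at positions 273 to 281. A match to these letters is a description, and no binding was measured here.

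Many of the 32 genes had few counts. In the neuron libraries 30 and 22 of them had at least 1 count, against 27 and 24 in the proliferating libraries. Low coverage was not particular to them. Of 23761 genes with a count in any library, 94.0% and 63.9% had at least 1 in the neuron libraries. In the proliferating libraries 62.5% and 59.2% did. At least 10 counts were reached by 27 and 9 genes in the neuron libraries and by 11 and 12 in the proliferating libraries, and neuron 1 is the deepest library. A count in all 4 libraries was seen for 20 genes. Rims1, a central active zone scaffold, had 0 counts in every library. Sv2b, a vesicle glycoprotein, and Dlg2, a postsynaptic scaffold also called PSD-93, had 1 count each in total, in neuron 1 and proliferating 1. Shank1, another postsynaptic scaffold, had 4 and 0 counts in the neuron libraries and 4 and 0 in the proliferating libraries.

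**Figure D1:**
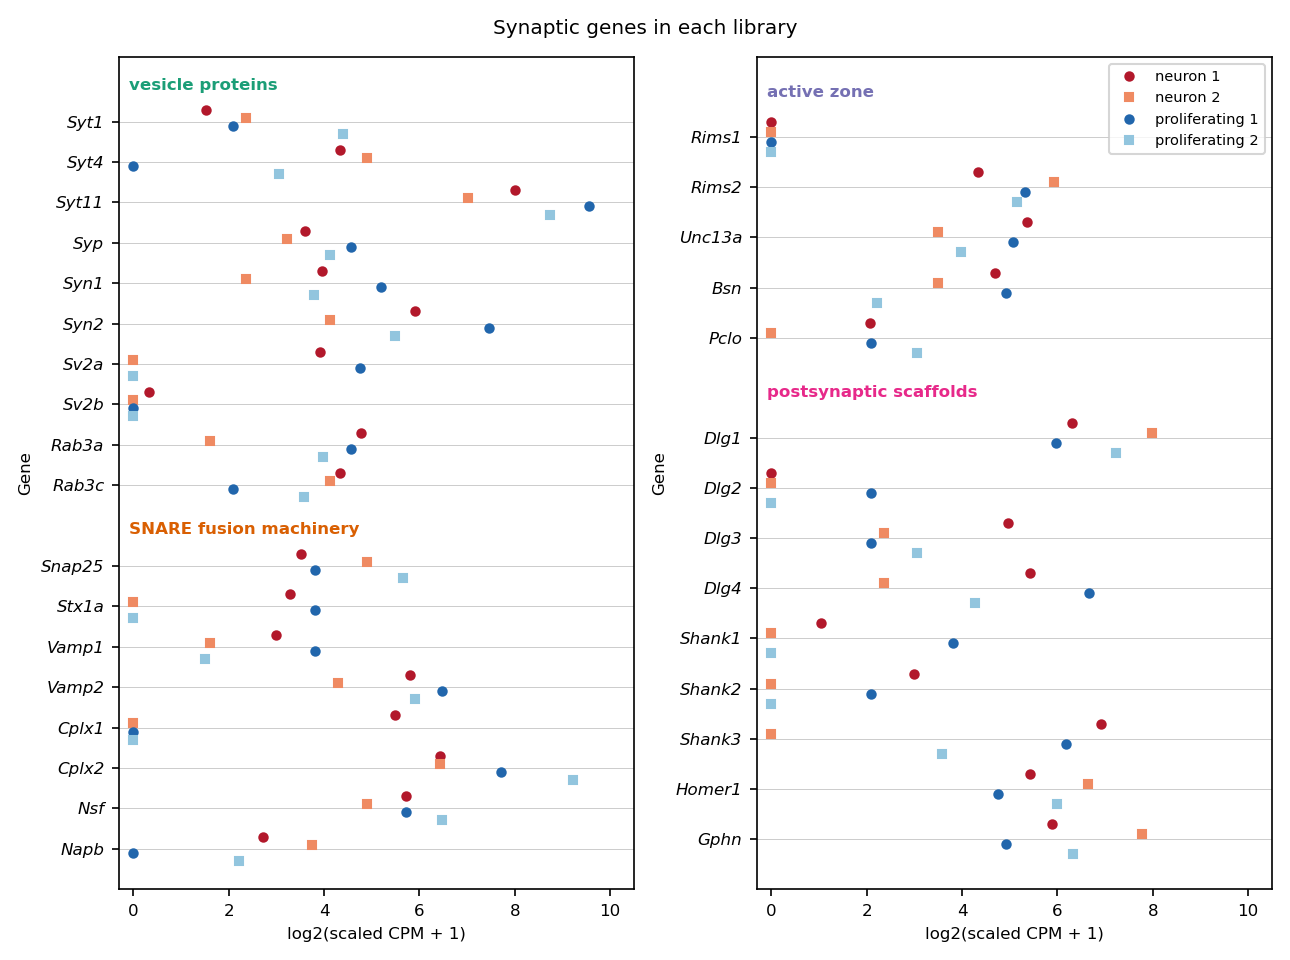
Level of each of the 32 genes as log2(scaled CPM + 1) (x axis) in each of the 4 libraries, with genes in rows grouped by role. Red and orange points are the neuron libraries and dark and light blue points the proliferating ones. Syt11 and Cplx2 lie further left in both neuron libraries than in both proliferating libraries, and Syt4 lies further right.

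Together the 32 genes held 0.134% and 0.0816% of the remaining counts in the neuron libraries, with 95% Wilson intervals of 0.130 to 0.138 and 0.0748 to 0.0890. The share was 0.194% and 0.154% in the proliferating libraries, with intervals of 0.179 to 0.211 and 0.145 to 0.164. As a summed level this was 1154 and 1045 scaled CPM in the neuron libraries, against 1845 and 1737 in the proliferating libraries. Both neuron libraries were lower than both proliferating libraries. That difference rested on Syt11 and Cplx2, which were singled out after their values were seen. Without them the other 30 genes summed to 813 and 831 scaled CPM in the neuron libraries and to 885 and 715 in the proliferating libraries, and the groups overlapped. In these bulk samples, fewer cells of a type and less RNA per cell cannot be told apart.

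**Figure D2:**
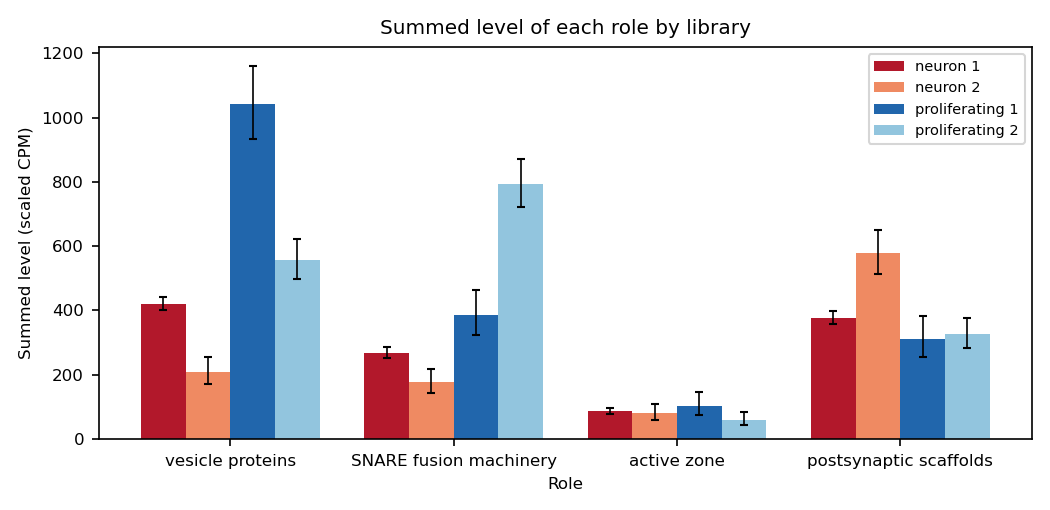
Summed level of the genes of each role in scaled CPM (y axis, from 0) for each library, with neuron libraries in red and orange and proliferating libraries in blue. Bars are single libraries and error bars are 95% Wilson intervals, which cover counting error only. The vesicle protein and SNARE machinery sums were lower in both neuron libraries, but overlapped between groups without Syt11 and without Cplx2. The postsynaptic scaffold sum was higher in both neuron libraries, and the active zone overlapped.

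By role, the directions differed. Vesicle protein genes summed to 421 and 209 scaled CPM in the neuron libraries, against 1041 and 556 in the proliferating libraries. SNARE machinery genes summed to 268 and 176 scaled CPM in the neuron libraries and to 387 and 794 in the proliferating libraries. Both sums were lower in each neuron library than in each proliferating library, and 1 gene held the largest part of each. Syt11 made up 60.6% to 77.2% of the vesicle protein sum, and Cplx2 32.1% to 74.6% of the SNARE machinery sum. Without Syt11 the other 9 vesicle protein genes summed to 166 and 80.8 scaled CPM in the neuron libraries and to 290 and 127 in the proliferating libraries. Without Cplx2 the other 7 SNARE machinery genes summed to 182 and 91.2 scaled CPM in the neuron libraries and to 179 and 202 in the proliferating libraries. The groups then overlapped in both roles, although the vesicle protein sum was still lower in the neuron library within each number. Postsynaptic scaffold genes summed to 378 and 578 scaled CPM in the neuron libraries, against 312 and 326 in the proliferating libraries, so that sum was higher in each neuron library. Its interval in neuron 1, 358 to 398, overlapped those of proliferating 1, 256 to 381, and proliferating 2, 282 to 378. Shank3 made up 31.5% of the neuron 1 sum and had 0 counts in neuron 2. For this role no sum without its top gene was taken. Active zone genes summed to 87.5 and 80.8 scaled CPM in the neuron libraries and to 104 and 60.5 in the proliferating libraries, with overlap.

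In a test of single genes, edgeR's quasi-likelihood test with group alone was run on 9009 genes and called none of these genes. A total of 18 of the 32 passed the count filter and were tested, and 0 were called higher and 0 lower, against 0% of all tested genes in either direction. Before adjustment, 0 of the 18 had a p under 0.05, against 1.08% of all tested genes. Every adjusted p (Benjamini-Hochberg over all 9009) was 1.00, and the lowest unadjusted p was 0.0551, for Cplx2. With 2 libraries per group, a p above the threshold does not show that a gene was at the same level in both groups. With the replicate number added to the fit as a block, 0 of the 18 were called, against 0.644% of all tested genes called higher and 0.322% called lower. Before adjustment, 6 of the 18 had a p under 0.05 in that edgeR fit, against 894 of all 9009 tested genes. The 6 were Syt4, Syt11, Syn2, Cplx2, Dlg4 and Gphn, and their lowest adjusted p in that edgeR fit was 0.0840, for Cplx2. Where a fold change is said below to lie within the spread, the fit with group alone is meant. In that fit, differences between the replicate numbers count as spread. With group alone, the median log2 fold change, neuron over proliferating, was -0.49 for the 18 genes and -0.03 for all tested genes. Among the 18, Syt4 passed the filter through the neuron libraries alone, 6 genes through the libraries numbered 1 alone and 1 through those numbered 2 alone.

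Of the 18 tested genes, 4 were lower in both neuron libraries than in both proliferating libraries, against 8.5% of all tested genes. These were Syt11, Cplx2, Vamp2 and Nsf, and with library totals in place of TMM scaling Vamp2 and Nsf overlapped. Higher in both neuron libraries was 1 gene, Syt4, against 9.41% of all tested genes.

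Of all 32 genes, the vesicle protein gene Syt11 had the highest level per length in neuron 1 and proliferating 1. Syt11 encodes a synaptotagmin that does not bind calcium (chromosome 3, 88744700 to 88775164, mm10). It had 959 and 62 counts in the neuron libraries, which is 255 and 129 scaled CPM, and 231 and 234 counts in the proliferating libraries, 752 and 429 scaled CPM. Each neuron library was below each proliferating library. Its log2 fold change was -1.62 (SE 1.05, 2 libraries per group), within the spread between libraries by edgeR. Syt4, a synaptotagmin whose known roles lie in dense-core vesicle release, went the other way. It had 72 and 14 counts in the neuron libraries, 19.2 and 29.0 scaled CPM, against 0 and 4 counts in the proliferating libraries, with 7.34 scaled CPM in proliferating 2. Its fitted log2 fold change was 2.52 (SE 1.86), which depends on how the count of 0 is handled and lies within the spread. Against the limit of 3 counts in proliferating 1, the level in neuron 1 was at least 1.96-fold higher, and within the libraries numbered 2 the ratio was 3.96 (95% exact interval 1.24 to 16.5).

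The synapsins tether vesicles to the cytoskeleton. Syn2 had 222 and 8 counts in the neuron libraries, 59.1 and 16.6 scaled CPM, and 54 and 24 counts in the proliferating libraries, 176 and 44.0 scaled CPM. The groups overlapped, since neuron 1 was above proliferating 2. Within each number, however, Syn2 was lower in the neuron library, at ratios of 0.336 (exact interval 0.249 to 0.462) and 0.377 (0.146 to 0.867). Syn1, whose promoter is printed above, had 55 and 2 counts in the neuron libraries, 14.6 and 4.15 scaled CPM, and 11 and 7 counts in the proliferating libraries, 35.8 and 12.8 scaled CPM. It was also lower within each number, and the groups overlapped. The log2 fold changes were -1.49 for Syn2 (SE 1.11) and -1.27 for Syn1 (SE 1.55), within the spread.

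The other vesicle genes were low. Syp, the vesicle membrane protein synaptophysin, was at 11.2 and 8.29 scaled CPM in the neuron libraries and 22.8 and 16.5 in the proliferating libraries, from 42 and 4 counts and from 7 and 9 counts. It did not overlap between groups but was not tested. Its ratios within numbers 1 and 2 were within counting error, with exact intervals of 0.218 to 1.29 and 0.113 to 1.80. Rab3a, a GTPase that brings vesicles to release sites, was at 26.3 and 2.07 scaled CPM in the neuron libraries and 22.8 and 14.7 in the proliferating libraries, with overlap. These came from 99 and 1 counts in the neuron libraries and 7 and 8 in the proliferating libraries, and the log2 fold change was -0.31 (SE 1.58). Its relative Rab3c was at 19.2 and 16.6 scaled CPM in the neuron libraries, against 3.25 and 11.0 in the proliferating libraries, from 72 and 8 counts and from 1 and 6 counts. Rab3c was thus higher in both neuron libraries, without a test. Its exact intervals of the ratio were 1.02 to 236 in number 1 and 0.459 to 5.27 in number 2. Sv2a, a vesicle glycoprotein and the target of the drug levetiracetam, had 53 and 0 counts in the neuron libraries and 8 and 0 in the proliferating libraries, with a log2 fold change of -0.67 (SE 2.30). Syt1, the main calcium sensor of fast release in forebrain neurons, had 7 and 2 counts in the neuron libraries and 1 and 11 in the proliferating libraries. It overlapped between the groups and was not tested.

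In the SNARE machinery, Cplx2 showed the lowest unadjusted p of the 18 genes. Cplx2 encodes a complexin, which binds the assembled SNARE complex (chromosome 13, 54371349 to 54383917). It had 323 and 41 counts in the neuron libraries, 86.0 and 85.0 scaled CPM, against 64 and 323 counts in the proliferating libraries, 208 and 592 scaled CPM. The neuron libraries were close to each other and below both proliferating libraries. Within numbers 1 and 2 the ratios were 0.413 (exact interval 0.315 to 0.549) and 0.143 (0.101 to 0.199). The log2 fold change was -2.23 (SE 1.05), within the spread by edgeR's quasi-likelihood test (adjusted p = 1.00).

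Cplx1, the other complexin listed, was seen in a single library. It had 164 and 0 counts in the neuron libraries and 0 and 0 in the proliferating libraries. The 164 counts in neuron 1 correspond to 43.6 scaled CPM, at least 4.47-fold higher than the limit of 3 counts in proliferating 1. Neuron 2 and proliferating 2 were both at 0, so no fold is given there, and the gene did not pass the filter. No annotated gene overlaps the exons of Cplx1.

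The 3 SNARE proteins of synaptic fusion were represented unevenly. Vamp2, the vesicle SNARE synaptobrevin, had 207 and 9 counts in the neuron libraries, 55.1 and 18.7 scaled CPM, and 27 and 32 counts in the proliferating libraries, 87.8 and 58.7 scaled CPM. Snap25, a plasma membrane SNARE, had 39 and 14 counts in the neuron libraries, 10.4 and 29.0 scaled CPM, against 4 and 27 counts in the proliferating libraries, 13.0 and 49.5 scaled CPM. Snap25 was lower in the neuron library of each number, but its lower values came from the libraries numbered 1 in both groups. Stx1a, the syntaxin partner, had 33 and 0 counts in the neuron libraries and 4 and 0 in the proliferating libraries. Its levels were 8.78 scaled CPM in neuron 1 and 13.0 in proliferating 1, within counting error (exact interval of the ratio 0.240 to 2.62). Vamp1, a relative of Vamp2, had 26 and 1 counts in the neuron libraries and 4 and 1 in the proliferating libraries. These were 6.92 and 2.07 scaled CPM in the neuron libraries and 13.0 and 1.83 in the proliferating libraries. Both of its ratios were within counting error, with exact intervals of 0.184 to 2.10 and 0.0144 to 88.7. The log2 fold changes of Vamp2 and Snap25 were -0.96 (SE 1.04) and -0.73 (SE 1.28), within the spread.

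Of the factors that take SNARE complexes apart, Nsf, the ATPase, was at 51.6 and 29.0 scaled CPM in the neuron libraries and at 52.1 and 88.0 in the proliferating libraries. These came from 194 and 14 counts in the neuron libraries and 16 and 48 in the proliferating libraries, with a log2 fold change of -0.79 (SE 1.01). Within number 1 the ratio of Nsf was 0.992 (exact interval 0.595 to 1.77), and within number 2 it was 0.330 (exact interval 0.168 to 0.608). Napb, a neuronal SNAP adaptor of NSF, had 21 and 6 counts in the neuron libraries and 0 and 2 in the proliferating libraries. Its levels were 5.59 and 12.4 scaled CPM in the neuron libraries and 3.67 in proliferating 2, and the value in neuron 1 lies under the limit of 3 counts in proliferating 1.

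The tested active zone genes had opposite directions in the libraries numbered 1 and 2, but mostly within counting error. Rims2, a RIM scaffold, was at 19.2 and 60.1 scaled CPM in the neuron libraries and at 39.0 and 34.8 in the proliferating libraries, from 72 and 29 counts and from 12 and 19 counts. Unc13a, the priming factor Munc13-1 whose promoter is printed above, was at 40.2 and 10.4 scaled CPM in the neuron libraries and at 32.5 and 14.7 in the proliferating libraries, from 151 and 5 counts and from 10 and 8 counts. Bsn, which encodes Bassoon, was at 25.0 and 10.4 scaled CPM in the neuron libraries and at 29.3 and 3.67 in the proliferating libraries, from 94 and 5 counts and from 9 and 2 counts. All 3 overlapped between the groups, and their log2 fold changes were 0.08 (SE 1.11), 0.16 (SE 1.27) and 0.19 (SE 1.56). Exact intervals of the ratio within numbers 1 and 2 were 0.653 to 2.63 and 0.182 to 2.45 for Unc13a. For Bsn they were 0.431 to 1.93 and 0.463 to 29.7. For Rims2 they were 0.264 to 0.994 and 0.935 to 3.26, so only its number 1 interval left out a ratio of 1. Pclo, which encodes Piccolo, had 12 and 0 counts in the neuron libraries and 1 and 4 in the proliferating libraries. Exons of Unc13a overlap those of the gene Colgalt1 on the other strand by up to 495 bases. How strand was handled in counting is not given in the sources used here, and some reads of Unc13a may be those of Colgalt1.

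Among the postsynaptic scaffolds, Gphn, Dlg1 and Homer1 were higher in the neuron library within each number. Gphn encodes gephyrin (chromosome 12, 78226379 to 78684772). It had 220 and 105 counts in the neuron libraries, 58.5 and 218 scaled CPM, and 9 and 43 counts in the proliferating libraries, 29.3 and 78.9 scaled CPM. The groups overlapped, because neuron 1 was below proliferating 2, but the ratios within numbers 1 and 2 were 2.00 (exact interval 1.03 to 4.43) and 2.76 (1.92 to 4.03). Its log2 fold change was 1.33 (SE 1.07), within the spread.

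Dlg1, the scaffold SAP97, which is also found at epithelial junctions, had 294 and 122 counts in the neuron libraries, 78.2 and 253 scaled CPM, and 19 and 81 counts in the proliferating libraries, 61.8 and 149 scaled CPM. In neuron 2 Dlg1 was the most abundant of the 32 genes per length, at 32.5 scaled CPM per kilobase. Homer1, which links metabotropic glutamate receptors to SHANK proteins, was at 41.8 and 99.5 scaled CPM in the neuron libraries and at 26.0 and 62.4 in the proliferating libraries, from 157 and 48 counts and from 8 and 34 counts. For both genes the libraries numbered 2 were above those numbered 1 in either group, and the groups overlapped. Ratios within numbers 1 and 2 were 1.27 (exact interval 0.796 to 2.13) and 1.70 (1.27 to 2.28) for Dlg1, and 1.61 (0.795 to 3.78) and 1.60 (1.01 to 2.55) for Homer1. The log2 fold changes were 0.64 (SE 1.02) and 0.65 (SE 1.05).

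Dlg4, the scaffold PSD-95 of excitatory synapses, went the other way. It had 158 and 2 counts in the neuron libraries, 42.0 and 4.15 scaled CPM, and 31 and 10 counts in the proliferating libraries, 101 and 18.3 scaled CPM. It was lower in the neuron library within each number, at a ratio of 0.417 (exact interval 0.282 to 0.634) for number 1 and 0.226 (0.0241 to 1.06) for number 2. Its log2 fold change was -1.28 (SE 1.28). Shank3 had 447 and 0 counts in the neuron libraries, 119 scaled CPM in neuron 1, against 22 and 6 counts in the proliferating libraries, 71.6 and 11.0 scaled CPM. Number 1 gave a ratio of 1.66 (1.08 to 2.68) for Shank3, whereas in number 2 it was at least 1.77-fold lower in the neuron library against the limit of 3 counts. Its log2 fold change was 0.59 (SE 1.55). Dlg3 had 113 and 2 counts in the neuron libraries and 1 and 4 in the proliferating libraries. Its ratios within numbers 1 and 2 were 9.24 (1.63 to 368) and 0.565 (0.0511 to 3.94). Shank2 had 26 and 0 counts in the neuron libraries and 1 and 0 in the proliferating libraries, with a number 1 ratio of 2.13 (0.349 to 87.2). Neither Dlg3 nor Shank2 was tested.

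**Figure D3:**
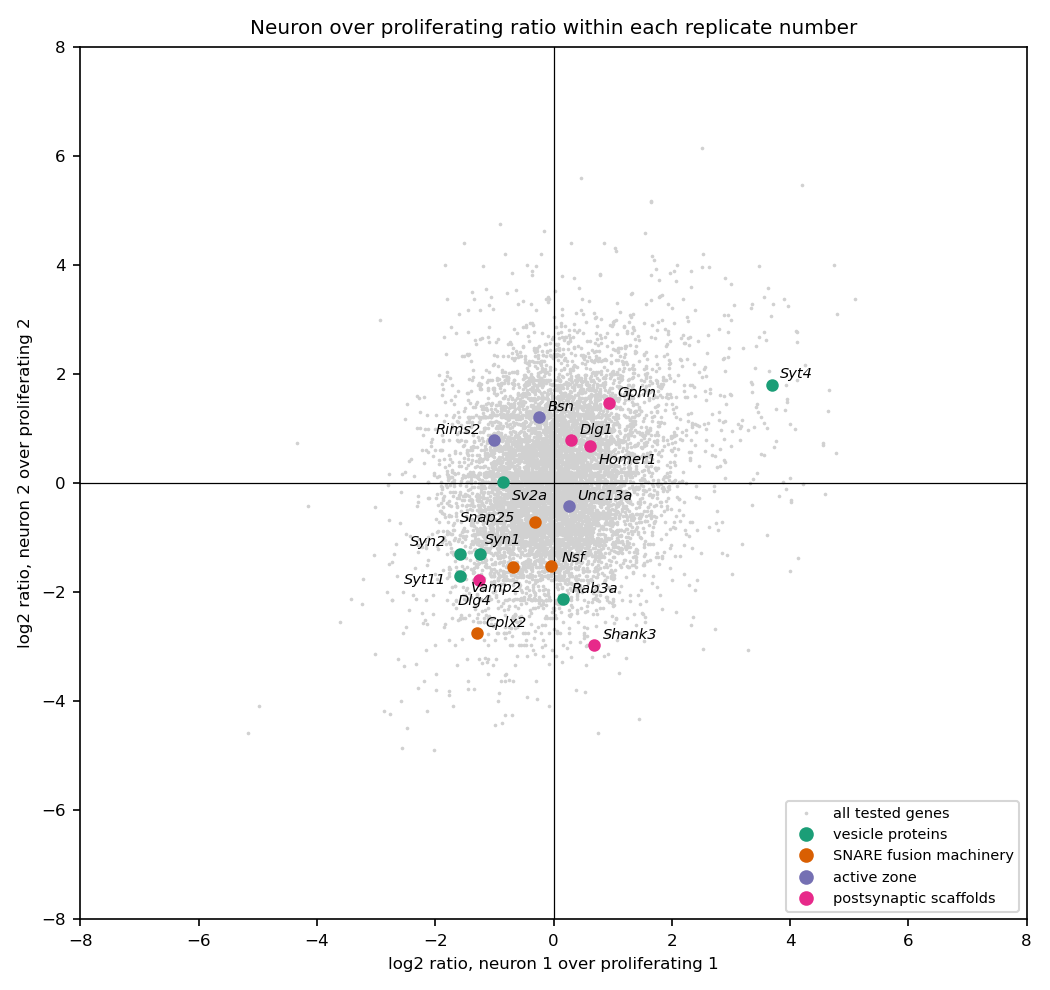
Centred log2 ratio of neuron 1 over proliferating 1 (x axis) against that of neuron 2 over proliferating 2 (y axis) for the 18 tested genes, coloured by role, and for all 9009 tested genes in grey. Genes in the lower left were lower in the neuron library of both numbers, such as Syt11, Syn1, Syn2, Cplx2 and Dlg4, and those in the upper right, Syt4, Gphn, Dlg1 and Homer1, were higher in both.

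Within each replicate number there is 1 library per group, so the following ratios have no test. They are differences of log2 CPM after subtracting the median over the 9009 genes. The median ratio of the 18 genes was -0.28 in number 1 and -1.01 in number 2. A total of 8 of the 18 were lower in the neuron library of both numbers, against 27.4% of all tested genes, and 4 were higher in both, also against 27.4%. The 8 were Syt11, Syn1, Syn2, Snap25, Vamp2, Cplx2, Nsf and Dlg4. All 4 tested SNARE machinery genes were among them, with a median ratio of -0.51 in number 1 and -1.54 in number 2. The ratio of Nsf in number 1 was -0.04, so its direction there is weak. For Snap25 the direction was within counting error in both numbers, at ratios of scaled CPM of 0.798 (exact interval 0.288 to 3.07) and 0.586 (0.284 to 1.16). Of the 5 tested postsynaptic scaffold genes 3 were higher in both, with medians of 0.62 and 0.69, and of the 3 tested active zone genes 0 had the same sign in both numbers. Among those active zone ratios, only that of Rims2 in number 1 was beyond counting error. The ratio of Syt4 was 1.81 in number 2, and in number 1, where proliferating 1 had 0 counts, its 3.69 depends on the prior count and is no bound.

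Libraries also differed by their replicate number. Across genes, the Pearson correlation of log2 CPM was 0.78 within number 1 and 0.82 within number 2, against 0.50 between the neuron libraries and 0.40 between the proliferating libraries. Of the 18 genes, 8 were lower in both libraries numbered 2 than in both numbered 1, against 35.1% of all tested genes, and 4 were higher in both, against 31.2%. The 8 were Syn1, Syn2, Sv2a, Rab3a, Unc13a, Bsn, Dlg4 and Shank3, and the 4 were Snap25, Dlg1, Homer1 and Gphn. The count filter partly set these counts, since Syn1, Sv2a, Rab3a, Unc13a, Bsn and Shank3 passed it only through the libraries numbered 1 and Snap25 only through those numbered 2. Among the 32, 7 had counts in a library numbered 1 and 0 in both libraries numbered 2.

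**Figure D4:**
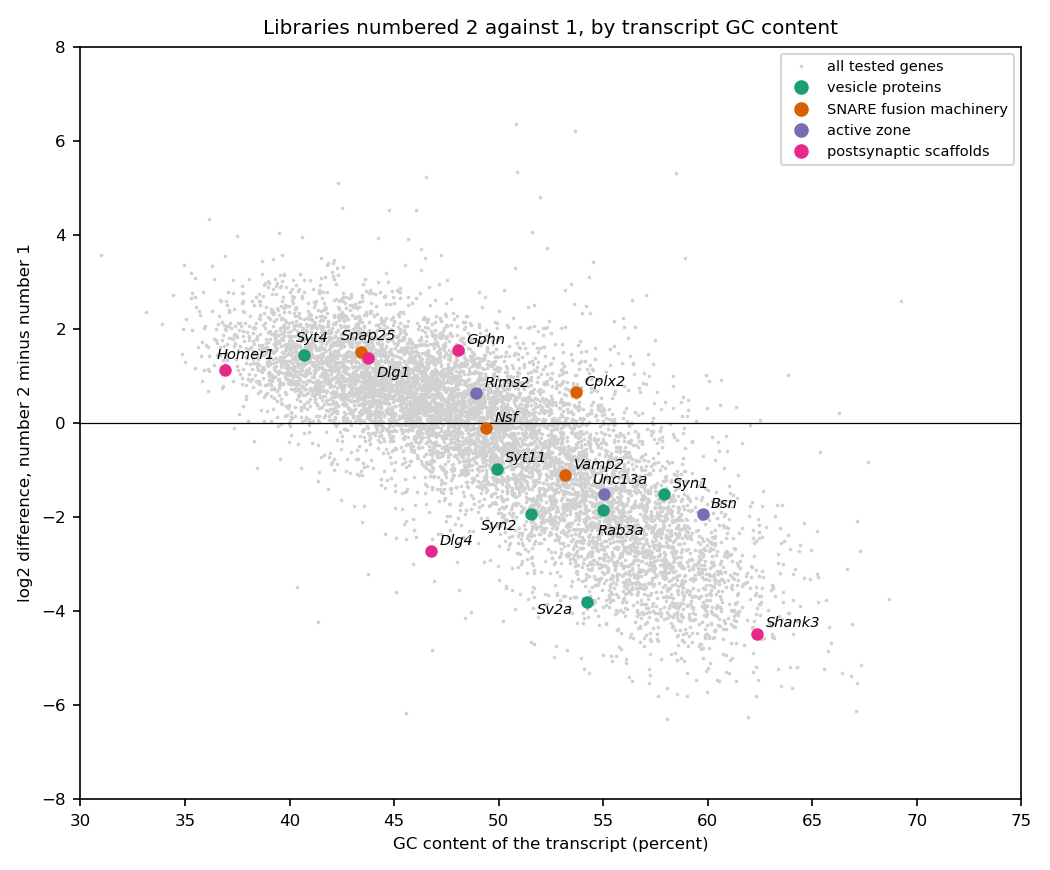
Difference in mean log2 CPM, libraries numbered 2 minus libraries numbered 1 (y axis, with the median over tested genes at 0), against transcript GC content in percent (x axis). Coloured points are the 18 tested genes and grey points the 8655 tested genes with a GC value. Shank3, at 62.4% GC, lies at -4.48 and Homer1, at 36.9% GC, at 1.14.

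This difference between numbers went with the GC content of the transcript, taken from the longest protein-coding transcript of each gene in GENCODE M21. Across the 18 genes the Pearson correlation of GC content with the difference, number 2 minus number 1, was -0.74 (Spearman -0.72), and across 8655 tested genes it was -0.78 (Spearman -0.79). These are descriptions across genes of the same 4 libraries, and genes are not independent replicates. At the GC-rich end, Shank3 (62.4% GC) had a difference of -4.48 on the log2 scale and Bsn (59.8%) one of -1.94. At the GC-poor end, Homer1 (36.9%) had a difference of 1.14 and Syt4 (40.7%) one of 1.45. Dlg4 lay below the trend, at -2.73 with 46.8% GC, and Cplx2 above it, at 0.66 with 53.7%. Of the 7 genes at 0 in both libraries numbered 2, Shank1, Stx1a, Cplx1, Shank2 and Sv2a had between 54.2% and 61.4% GC, and Sv2b and Dlg2 had 46.8% and 44.3% but only 1 count each. The ratios between groups within a number also went with GC across all tested genes, at a Spearman correlation of -0.30 in number 1 and -0.43 in number 2. In the 18 genes these were -0.19 and -0.42. With a block for the number and a correction for GC content in the fit, the log2 fold change of Homer1 was -0.38 and that of Cplx2 -1.66.

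Other genes of the same machinery were tested in the same fit, with group alone. Of 71 further vesicle and release genes 30 were tested, and 0 were called in either direction, with a median log2 fold change of -0.11. Lin7c, a scaffold that joins CASK, and Dnajc5, the vesicle chaperone CSP-alpha, had the highest means, with log2 fold changes of 0.78 (SE 1.10) and -0.85 (SE 0.96). Of 27 further postsynaptic scaffold genes 24 were tested and 0 were called, with a median of -0.10, Dlgap4 at -0.19 (SE 1.25) and Camk2d at -0.29 (SE 0.96). Of 35 receptor genes for glutamate, GABA and glycine 4 were tested and 0 were called, with a median of 1.41, and 13 were at 0 in every library. The AMPA receptor gene Gria4 had 299 and 36 counts in the neuron libraries, against 5 and 8 in the proliferating libraries, and Gria2 had 142 and 33 counts in the neuron libraries, against 1 and 4 in the proliferating libraries. Their log2 fold changes were 2.32 (SE 1.08) and 3.23 (SE 1.31), not called by edgeR with group alone (adjusted p = 1.00 each), and both were higher in each neuron library. With the replicate number as a block edgeR called Gria2 higher, at 3.30 (adjusted p = 0.0410). Gria2 passed the count filter only through the neuron libraries, where its level was high, so the filter partly set its direction. That selection also enters the median of the 4 tested receptor genes. The kainate receptor subunit Grik5, with the highest mean of the receptors, was at -0.30 (SE 1.39).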

How the data were processed

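Raw counts per gene were deposited by the authors, one file per library, and RPKM values, scaled by the authors to gene length and library total, beside them. The submitters' processing notes name mm10 as the build and featureCounts, HISAT2, SAMtools and DESeq2 as tools. Versions, annotation and strand setting: not given in the sources used here. Per the labels' protocols, 500 ng of RNA went into rRNA depletion and a stranded kit made the libraries. Counts divided by RPKM and total gave one gene length within a tolerance of 0.001 in all libraries for 6398 of 6398 genes with 5 or more counts in each.

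With 7 rRNA and rRNA-like genes left out, filterByExpr (a cutoff of 16.2 CPM in 2 libraries) left 9009 genes. They were tested with edgeR 4.0.16 in R 4.3.3 (TMM scaling, quasi-likelihood test, group as the only term, Benjamini-Hochberg threshold 0.05). On simulated data this test recovered none of the changed genes at any fold tried, so a gene that it does not call may still differ. With the replicate number added as a block, 8373 genes were tested on such data. That fit recovered 1, 16, 37 and 38 of 50 changed genes at 2-, 4-, 8- and 16-fold. It made 3 false calls at each fold. For log2 CPM the prior count was 2, so genes at 0 have ratios that depend on it. SEs are the fold change divided by the root of F. Alternatives were DESeq2 1.42.0, limma 3.58.1 on log2 RPKM, other scalings and filters, a replicate block, a GC correction and leaving out each library. All 32 genes were named. From the other lists, genes past the threshold in any fit, or else the 2 with the highest mean, were named, and marker lists are given as sums. Genes and lists were chosen with earlier results of these data known. Exons of 13 of the 32 genes overlap another annotated gene, and without the strand setting their reads cannot be told apart.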

Additional observations from a re-analysis of the deposited data

How the results depend on the processing

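Of the 18 synaptic genes tested, 0 were called higher or lower under every setting run. With 2 libraries per group this says nothing about stability. With group alone 0 genes of all tested were called, with 97 of 9009 at an unadjusted p under 0.05, and DESeq2, with 190 of 23761, also called 0. Limma on log2(RPKM + 0.1) without a filter called 8 higher and 2 lower. The samples share only a replicate number. The correlation of deviations from group means within number 1 was 0.74, and with 2 libraries per group that of number 2 is the same. With the replicate block 58 genes were called higher and 29 lower, and 36 and 25 with a GC correction added. Among the synaptic genes the smallest adjusted p in edgeR was then 0.0840 (Cplx2) and 0.255. Before adjustment 6 and 4 of the 18 had a p under 0.05 in these edgeR fits, against 894 and 611 of 9009.

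The sign of several genes changed. Rims2 was at -0.064 with library totals, -0.10 with the replicate block and -0.011 with the GC correction, and on the RPKM scales with pseudocounts 0.1, 1 and 0.1 without a filter at -0.51, -0.30 and -0.054. On those 3 scales Unc13a was at -0.46, -0.24 and -0.0050, Bsn at -0.69, -0.34 and -0.24, and Shank3 at -0.49, -0.13 and -0.041. With the replicate block Unc13a was at -0.019 and Shank3 at -0.23. Homer1 was at -0.38 with the block and GC correction. The cause of these changes was not tested. Leaving out 1 library at a time, log2 fold changes ran from -1.67 to 6.64 for Sv2a, -3.06 to 0.50 for Rab3a, -1.64 to 0.58 for Snap25, -0.95 to 0.64 for Rims2, -1.22 to 0.85 for Unc13a, -0.68 to 2.30 for Bsn, -0.46 to 1.45 for Dlg1, -3.83 to 0.42 for Dlg4, -7.25 to 2.50 for Shank3 and -0.12 to 1.46 for Homer1, where values beyond 6, here and for Syt4, rest on a library at 0. The other 8 kept their sign but not their size, running from 1.70 to 8.19 for Syt4, -2.27 to -1.14 for Syt11, -2.52 to -0.36 for Syn1, -2.78 to -0.16 for Syn2, -2.02 to -0.41 for Vamp2, -2.78 to -1.25 for Cplx2, -1.31 to -0.32 for Nsf and 0.078 to 2.26 for Gphn, the lowest of Gphn being without neuron 2 and those nearest 0 of Syn1 and Syn2 without proliferating 1. The median of all tested genes was at 0.39 without proliferating 1, against -0.03 with all libraries. Keeping the ribosomal genes in the totals, an alternative chosen after the data were seen, tested 23 of the 32 genes among 11525 and called 0.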
